A study of Mus musculus with 11 samples.

Results

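The genes described are those of the mouse potassium channels and their auxiliary subunits, chosen by symbol: every gene of the deposited tables whose symbol is Kcn followed by letters and a number. There were 91 of them, all listed in both tables, of 24062 genes in the Ift88 table and 26667 in the Dzip1 table. A gene of the inward rectifier family with the same form of symbol was not analysed here. RNA was sequenced from mitral leaflets, the flaps that close the left atrium off from the left ventricle, in 11 libraries. In the Ift88 experiment all mice carried an Nfatc1 Cre, driven by a gene of the valve endocardium. There were 3 libraries with floxed Ift88, the knockout (NfatC1Cre(+), Ift88f/f), and 2 wild-type libraries with the same Cre (NfatC1Cre(+), Ift88+/+). In the Dzip1 experiment 3 libraries were heterozygous for the S14R allele (Dzip1S14R/+) and 3 were Dzip1+/+. Strain, age and whether each library came from its own animal are not stated in the labels. The p-values therefore measure only the spread between these libraries.

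Potassium channels let potassium ions cross the cell membrane, which pulls the membrane voltage toward its resting value. Voltage-gated channels (Kcna, Kcnb, Kcnc, Kcnd, Kcnh and Kcnq) open on depolarisation and end the action potential of heart muscle. Inward rectifiers (Kcnj) and K2P leak channels (Kcnk) hold the resting potential. Calcium-activated and related channels (Kcnma, Kcnn, Kcnt and Kcnu) link potassium flow to ions inside the cell. The silent subunits (Kcnf, Kcng, Kcns and Kcnv) form channels only together with other voltage-gated subunits, and the auxiliary proteins (Kcnab, Kcne, Kcnip and Kcnmb) change how a channel opens or how much of it reaches the membrane. Heart muscle of the ventricle and of the atrium is known to use different sets of these genes.

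Total counts per library ran from 23.4 to 53.8 M in the Ift88 table and from 75.1 to 93.5 M in the Dzip1 table. The spread between replicates was far larger in the first, with a biological coefficient of variation of 87.7% against 7.85%. Ift88 stood at 6.31 and 21.3 CPM (counts per M counts of the library) in the wild-type libraries and at 3.03, 4.12 and 0.43 CPM in the knockout libraries, lower in all 3. Dzip1 stood at 27.6 to 32.3 CPM in the 6 Dzip1 libraries with overlap between the groups, and counts per gene do not show the allele. Ift88 wild-type replicate 2 stood apart from the other libraries. Its Actc1, the cardiac actin gene that marks heart muscle, was at 29.7 CPM, and the lowest of the other 4 Ift88 libraries was 507 times higher. The 14 heart muscle markers summed to 131 CPM in it and to 30990 to 58584 CPM in the other 4. Values below are therefore given for every library, in the order wild-type replicates 1 and 2, then knockout replicates 1, 2 and 3.

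Promoters are shown for Actc1, for a pair of genes nearly absent from Ift88 wild-type replicate 2 (Kcnh2 and Kcnj6) and for a gene highest there (Kcnn4). They were chosen among genes with a RefSeq promoter, which Kcne1, Kcnj11 and Kcnn2, also near absent there, did not have. Kcnj6 was low throughout, at 3.18, 0, 1.44, 2.53 and 0.73 CPM. Each promoter is the 250 bases before a RefSeq transcript start on GRCm38.p6, 5′ to 3′ in the direction of the gene. The starts of Actc1 and Kcnh2 lie inside the longer GENCODE gene models. Capitals mark the matches to the motifs searched, on either strand: GATAA, the core bound by GATA factors, the MEF2 consensus, and the CArG box bound by serum response factor.
Actc1, chr2:114052876-114053125, reverse strand: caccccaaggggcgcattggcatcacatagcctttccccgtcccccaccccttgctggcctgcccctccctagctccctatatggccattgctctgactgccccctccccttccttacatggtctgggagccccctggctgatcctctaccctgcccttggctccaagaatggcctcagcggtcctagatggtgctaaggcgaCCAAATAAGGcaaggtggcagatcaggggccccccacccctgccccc
Kcnh2, chr5:24329592-24329841, reverse strand: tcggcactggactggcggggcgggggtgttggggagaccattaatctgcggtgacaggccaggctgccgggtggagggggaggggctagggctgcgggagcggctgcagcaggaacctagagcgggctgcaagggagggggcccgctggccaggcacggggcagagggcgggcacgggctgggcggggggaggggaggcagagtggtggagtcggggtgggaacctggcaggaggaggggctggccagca
Kcnj6, chr16:94997697-94997946, reverse strand: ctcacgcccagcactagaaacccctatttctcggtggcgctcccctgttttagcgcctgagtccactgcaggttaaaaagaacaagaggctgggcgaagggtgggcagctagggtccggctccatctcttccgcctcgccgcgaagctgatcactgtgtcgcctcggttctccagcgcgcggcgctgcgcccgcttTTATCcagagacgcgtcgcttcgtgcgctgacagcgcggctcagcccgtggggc
Kcnn4, chr7:24370013-24370262, forward strand: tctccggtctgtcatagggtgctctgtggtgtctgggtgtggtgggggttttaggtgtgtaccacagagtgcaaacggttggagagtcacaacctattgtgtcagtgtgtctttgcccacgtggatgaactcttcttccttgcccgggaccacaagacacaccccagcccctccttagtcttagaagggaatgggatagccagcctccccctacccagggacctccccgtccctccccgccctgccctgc

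The Actc1 promoter held 1 CArG box, and the Kcnj6 promoter held 1 GATAA on the opposite strand, read as TTATC. No motif of the 3 occurred in the Kcnh2 and Kcnn4 windows. Of the 91 potassium channel genes, 66 had at least 1 RefSeq promoter, 91 promoters in all. GATAA occurred in 13 of these (14.3%, against 22.6% of all 32851 promoters), the MEF2 consensus in 2 (2.20% against 2.92%) and the CArG box in 0 (against 1.47%). The motifs were counted separately, and a match is a description of the letters only. The GC content was 73.6% in the Kcnh2 window, 64.0% in Kcnj6, 58.8% in Kcnn4 and 63.6% in Actc1.

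About the same number of the genes was expressed in each table. Expressed here means at least 1 CPM in as many libraries as the smaller group holds, 2 in the Ift88 table and 3 in the Dzip1 table. This held for 49 of the 91 genes in the Ift88 table and for 47 in the Dzip1 table, of which 36 were shared. Another 13 were expressed in the Ift88 table only, 11 in the Dzip1 table only and 31 in neither. The detection differed between the tables: 44 of the Dzip1 genes but 10 of the Ift88 genes reached 1 CPM in every library. Among expressed genes, 27 in the Ift88 table and 0 in the Dzip1 table had a library with no count. In the genes with counts everywhere, the highest library was a median of 19.4 times the lowest in the Ift88 table (22 genes) and 1.34 times in the Dzip1 table (47 genes). No count in any library was found for 19 genes in the Ift88 table and for 5 in the Dzip1 table. Among those 19 were Kcnq3, Kcnd1, Kcna7 and Kcnh7, which were each expressed in the Dzip1 table.

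By role, 15 of 30 voltage-gated subunits, 3 of 10 silent subunits, 8 of 14 inward rectifiers, 6 of 14 K2P channels, 7 of 8 calcium-activated and related channels and 10 of 15 auxiliary subunits were expressed in the Ift88 table. The Dzip1 table gave 17, 3, 8, 5, 5 and 9 in the same order. The plot of levels by library shows the darker, uneven Ift88 columns beside the even Dzip1 columns.

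**Figure D1:**
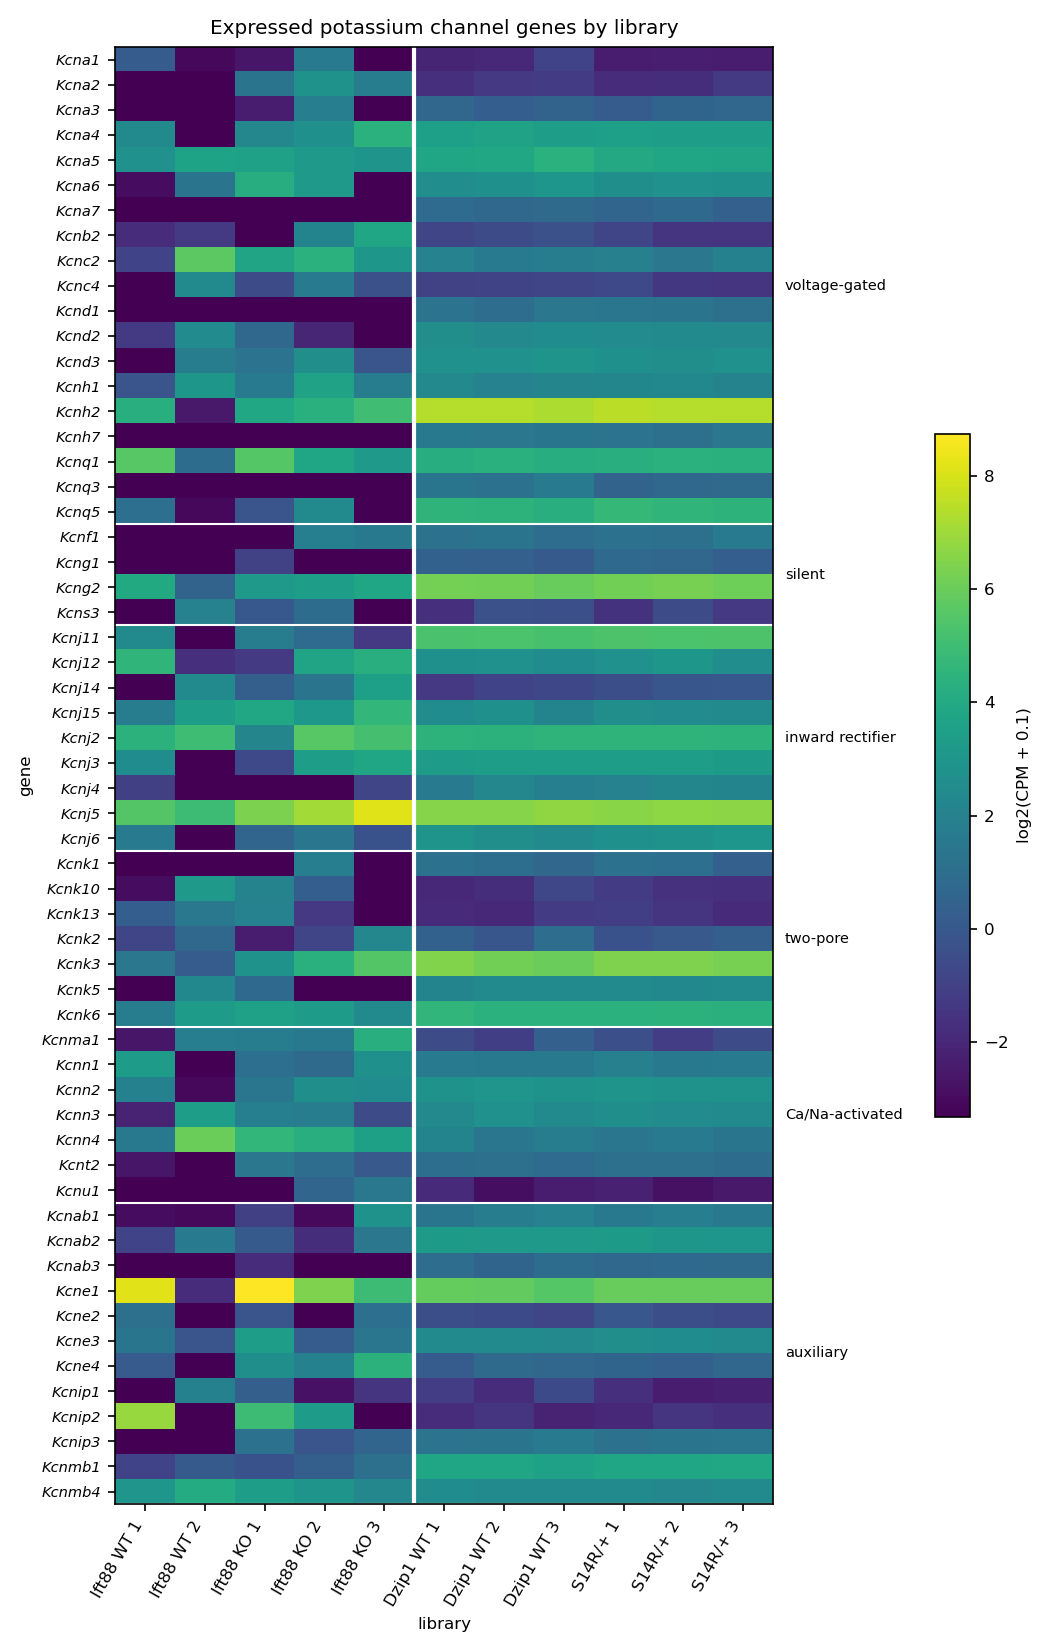
Levels of potassium channel genes expressed in at least 1 of the tables, as log2(CPM + 0.1), 1 column per library and 1 line per gene, grouped by role. Levels in the 6 Dzip1 libraries are alike within a gene, while many genes drop to the bottom of the scale in single Ift88 libraries, such as Kcne1 and Kcnh2 in wild-type replicate 2.

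Levels of different genes were compared per kilobase of exon, as the mean over the libraries of a table. In the Dzip1 table Kcnh2 was highest at 34.8 CPM per kilobase. It encodes the ERG channel of the rapid delayed rectifier current, which repolarises heart muscle. Kcng2, a silent subunit, followed at 23.6, Kcnj5 at 21.2, Kcnk3 at 19.8 and Kcne1 at 17.9. In wild type these last 4 lay at 23.1 ± 2.39, 20.9 ± 1.37, 18.8 ± 3.22 and 17.0 ± 2.06 CPM per kilobase (SD, n = 3), so neighbours in that order were not apart beyond their spread. Kcnj11 was lower at 10.8 and Kcna5 at 5.33. In the Ift88 table Kcne1 led at 51.9 CPM per kilobase, then Kcnj5 at 24.8, Kcnip2 at 9.18, Kcnq1 at 5.85 and Kcnj2 at 5.27. The order there rests on libraries that differed strongly: Kcne1 in wild type was 45.1 ± 63.7 CPM per kilobase (SD, n = 2). The tables were counted apart, and levels were not tested between them.

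The Ift88 comparison asks which genes differ when the cilium gene is knocked out in the Nfatc1 lineage. No potassium channel gene passed the threshold (Benjamini-Hochberg adjusted p under 0.05 over all 14244 tested genes, edgeR quasi-likelihood test), with 53 of the 91 tested. The threshold was passed by 0.0% of all tested genes, and the smallest adjusted p among the 53 was 0.802. At an unadjusted p under 0.05 edgeR gave 4 of the 53, beside 6.01% of all tested genes. DESeq2 called 5 of 66 as higher in the knockout, beside 2.3% of all genes higher, and 0 as lower, beside 0.114%. The 5 were Kcna2, Kcnip3, Kcnk3, Kcnk1 and Kcnv2. The last 2 had counts in 1 library each, 141 in knockout replicate 2 for Kcnk1 and 316 in knockout replicate 3 for Kcnv2. All of the 5 except Kcnk3 had no wild-type count, so they could be called only as higher. The share of 5 in 66 is therefore partly set by which genes had counts in the knockout alone.

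In 6 of the 53 tested genes all knockout libraries lay above both wild-type libraries: Kcnj5, Kcnk3, Kcna2, Kcne4, Kcnip3 and Kcnt2. This is 11.3%, beside 15.4% of all tested genes. Kcna2 and Kcnip3, with no wild-type count, and Kcnt2, with 2, passed the filter on low counts through the knockout libraries alone. Their place among the 6 is thus partly set by that filter. In 0 genes did all knockout libraries lie below, beside 7.55% of all tested genes. Of the 53, 31 had a positive log2 fold change, beside 49.4% of all tested genes. The median log2 fold change of the 53, knockout over wild type, was 0.40, beside -0.01 over all tested genes. Kcna2, Kcnip3, Kcnf1 and Kcnu1, with no wild-type count, and Kcnt2 and Kcnab1, with 2 each, were tested through the knockout libraries alone. The count of positive genes and the median are thus partly set by the filter. With a mean count of at least 50 the median was 0.035. The SE of a single gene had a median of 2.19 on the log2 scale and exceeded the fold change itself in 39 of the 53. Without wild-type replicate 1 that median of fold changes was 3.99, without wild-type replicate 2 it was 2.54 and without knockout replicate 2 it was 0.06.

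Kcnj5 encodes Kir3.4, a subunit of the acetylcholine-activated potassium channel of the atrium and pacemaker cells. It stood at 45.2 and 30.9 CPM in the wild type and at 82.7, 135 and 288 CPM in the knockout. All knockout libraries lay above both wild-type libraries, with knockout replicate 3 highest. The log2 fold change was 1.97 ± 0.64 (SE, adjusted p = 0.802 in edgeR and 0.15 in DESeq2). Its partner subunit Kir3.1, encoded by Kcnj3, stood at 5.80, 0, 0.54, 10.6 and 13.9 CPM, and its groups overlapped. About 31.1% of the exon bases of Kcnj3 overlap a gene on the opposite strand, and no source used here gives the strand setting of the counting.

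Kcnk3 encodes TASK-1, an acid-sensitive leak channel that in heart is known mainly from the atrium. Its levels were 2.64 and 1.04 CPM in the wild type and 7.11, 20.2 and 46.3 CPM in the knockout, again apart and highest in knockout replicate 3. The log2 fold change was 3.51 ± 1.09 (SE), with an adjusted p of 0.802 in edgeR and 0.0282 in DESeq2. With only the libraries titled IR28N (wild-type replicate 1, knockout replicates 1 and 2) edgeR gave 2.05 for Kcnk3 and 0.96 for Kcnj5, each with the same sign and past no threshold.

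Kcna2, which encodes the voltage-gated channel Kv1.2, had no count in either wild-type library and 2.39, 7.28 and 3.38 CPM in the knockout, from 447 counts. Set against a floor of 3 counts over the wild-type group, the pooled knockout counts were at least 127-fold higher. Such a floor allows for counting error only, not for the spread between libraries. The adjusted p of Kcna2 in DESeq2 was 0.000215, which does not test that floor. DESeq2 gave adjusted p-values of 0.000436 to Kcnk1 and 7.74e-05 to Kcnv2, each with counts in 1 library. A small value there thus does not show that libraries agreed. Kcnip3, a calcium-binding KChIP subunit also known as calsenilin, had no wild-type count and 2.14, 0.82 and 1.41 CPM in the knockout. By the same floor Kcnip3 was at least 37.8-fold higher, and its adjusted p in DESeq2 was 0.0293. Kcnt2, a sodium-activated channel, had 2 counts in the wild type and 183 in the knockout, a ratio of 78.0 (95% interval 21.3 to 649, counting error only). Neither Kcna2 nor Kcnip3 passed in edgeR, in which both had an adjusted p of 0.802. Both had counts in the knockout alone, so either test could find them only higher there.

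Kcne4, an inhibitory KCNE subunit, stood at 1.02, 0, 6.31, 3.90 and 21.6 CPM, with a log2 fold change of 4.08 ± 2.18 (SE, adjusted p = 0.819 in edgeR). Its groups were apart, with the 2 lowest libraries both wild type and knockout replicate 3 far above the rest. Kcnf1, a silent subunit, had no wild-type count and counts in knockout replicates 2 and 3 only, at 3.58 and 2.83 CPM. By the same floor it was at least 59.7-fold higher over the group, counting error only, but its groups met at 0. The plot of selected genes by library sets these beside heart muscle genes.

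**Figure D2:**
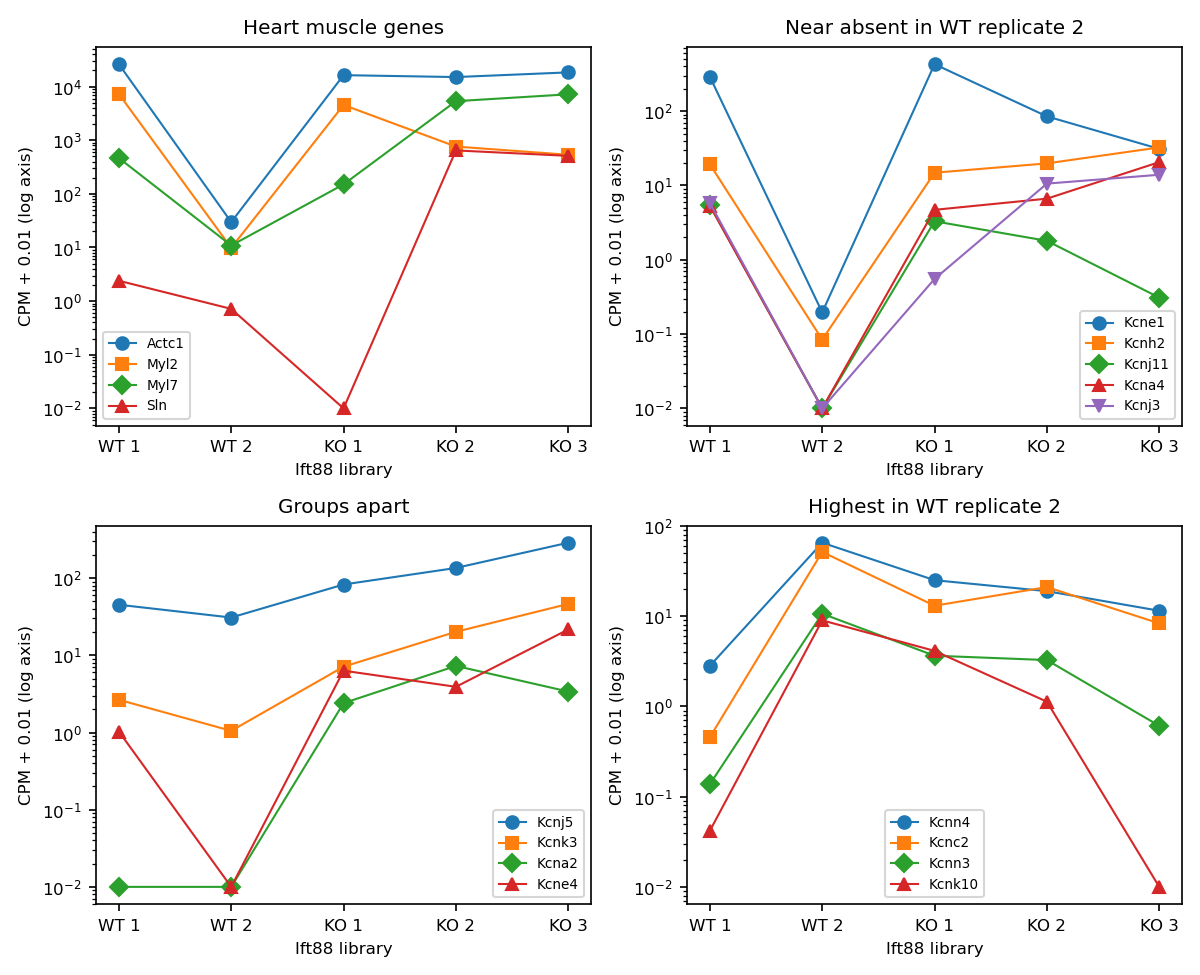
CPM + 0.01 on a log axis in the 5 Ift88 libraries, with a line joining the values of each gene. Actc1 and the genes in the panel of near-absent genes are low in wild-type replicate 2, Kcnj5, Kcnk3, Kcna2 and Kcne4 are higher in every knockout library, and Kcnn4, Kcnc2, Kcnn3 and Kcnk10 are highest in wild-type replicate 2.

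Wild-type replicate 2, the library with the least Actc1, divided the expressed potassium channel genes. It alone was the lowest library in 16 of the 49 (32.7%, beside 19.4% of all tested genes) and the highest in 12 (24.5%, beside 28.0%). A gene at 0 both there and in another library, such as Kcnip2, was not counted as lowest. In 10 genes wild-type replicate 2 held less than 0.1 times the next library, which is 20.4% beside 4.42% of all tested genes: Kcna4, Kcne1, Kcne4, Kcnh2, Kcnj3, Kcnj6, Kcnj11, Kcnn1, Kcnn2 and Kcnt2. A library with no count meets this rule however low the next one is. Kcnt2 was also near absent from wild-type replicate 1, at 0.06 CPM, where Actc1 was at 26161 CPM. In 8 genes wild-type replicate 2 held more than 2 times the next library, which is 16.3% beside 4.85%: Kcnc2, Kcnd2, Kcnip1, Kcnk5, Kcnk10, Kcnn3, Kcnn4 and Kcns3. The expressed potassium channel genes had a median level of 3.73 CPM and all tested genes 20.9 CPM, and the part of level in these shares was not tested. With 5 libraries no correlation with Actc1 was computed.

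Among the genes near absent from that library, Kcne1 showed the widest range. It encodes the beta subunit that slows Kcnq1 to give the slow delayed rectifier current. Kcne1 stood at 290, 0.19, 428, 85.0 and 31.0 CPM, so that it was high in wild-type replicate 1 and knockout replicate 1 and lowest in wild-type replicate 2. Its fold change between the genotypes was 0.04 ± 2.11 (SE, log2 scale), and the sign turned with the scaling. Kcnq1, its pore-forming partner, followed the same order of libraries except for the top pair, at 48.0, 1.80, 46.7, 14.2 and 8.99 CPM.

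Kcnh2 stood at 19.3, 0.07, 14.8, 19.8 and 32.5 CPM, alike in the 4 libraries with Actc1 and near absent in the other. Its log2 fold change of 0.90 ± 1.68 (SE) became 8.18 and passed (adjusted p = 0.0358 in edgeR) without wild-type replicate 1, which left wild-type replicate 2 alone as the reference, and turned to -0.10 without wild-type replicate 2. It was the single gene of the family called in edgeR when any 1 library was left out. Kcnj11, which encodes the pore Kir6.2 of the ATP-sensitive channel, had 5.41, 0, 3.28, 1.79 and 0.30 CPM. Kcna4, a subunit of the slow transient outward current, had 5.32, 0, 4.69, 6.63 and 20.6 CPM. Both were absent from wild-type replicate 2, where 0 of 53.8 M counts was theirs, and differed in which of the other libraries was highest.

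Kcnip2 encodes KChIP2, the subunit needed for the fast transient outward current of ventricular muscle. It stood at 119 and 0 CPM in the wild type and at 30.6, 9.81 and 0 CPM in the knockout. Both genotypes thus held a library with no count. In the Dzip1 libraries, whose Actc1 lay between 8551 and 10478 CPM, Kcnip2 reached only 0.12 to 0.27 CPM. In the Ift88 libraries the pore subunits it joins were low. Kcnd2 stood at 0.32, 5.50, 1.56, 0.15 and 0 CPM and Kcnd3 at 0, 3.27, 2.33, 6.03 and 0.81 CPM.

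Other genes were highest where Actc1 was lowest. Kcnn4, the intermediate-conductance calcium-activated channel known from blood, endothelial and proliferating mesenchymal cells, stood at 2.80, 65.2, 25.0, 18.9 and 11.5 CPM. Kcnc2, a Kv3 channel known for fast repolarisation in neurons, stood at 0.45, 51.5, 13.0, 21.01 and 8.30 CPM. Kcnn3, a small-conductance channel, stood at 0.13, 10.6, 3.64, 3.25 and 0.60 CPM. In all 3, wild-type replicate 1 was the lowest library and wild-type replicate 2 the highest, so the knockout lay between the 2 wild-type libraries. Wild-type replicate 1 was also lowest in the summed endothelial markers, at 172 CPM against 1162 to 1535 CPM in the other 4, and in the summed interstitial markers, at 1704 against 4685 to 9229 CPM. Among the interstitial markers Col1a2, Vcan and Tcf21 were not lowest in that library. The neuron markers summed to 5.51 to 23.1 CPM, and the part of cell makeup in these values was not tested. In bulk tissue fewer cells of a type and less RNA per cell cannot be told apart.

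Other genes did not divide the libraries in this way, and wild-type replicate 2 held neither less than 0.1 nor more than 2 times the next library. Kcna5, the Kv1.5 channel of the ultrarapid current, stood at 6.82, 12.6, 11.96, 9.09 and 7.36 CPM. Kcnj2, the main Kir2.1 inward rectifier, stood at 21.8, 32.2, 4.43, 48.5 and 36.4 CPM, lowest in knockout replicate 1. Kcnj12, which encodes Kir2.2, stood at 23.7, 0.22, 0.32, 12.9 and 18.9 CPM, low in wild-type replicate 2 and in knockout replicate 1, which has ample Actc1. Kcnj15 stood at 3.31, 10.8, 14.5, 8.44 and 25.6 CPM, and Kcng2 at 16.1, 1.34, 8.80, 10.3 and 13.6 CPM. In none of these 5 were the genotypes apart.

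The 4 libraries with Actc1 were not alike in kind of heart muscle gene. Actc1 varied 1.74-fold among wild-type replicate 1 and knockout replicates 1, 2 and 3. Myl2, the myosin light chain of the ventricle, fell in that order from 7270 to 4546, 762 and 536 CPM. Myl7, the atrial light chain, was at 465, 150, 5349 and 7183 CPM, and the atrial gene Sln at 2.39, 0, 646 and 512 CPM. Myl4, another atrial light chain, was at 503, 219, 1305 and 3081 CPM. Nppa, the atrial peptide gene, did not follow them, at 1292, 348, 45.9 and 517 CPM. Knockout replicates 2 and 3 thus had the higher Myl7, Sln and Myl4, but not the higher Nppa, beside their higher Kcnj5 and Kcnk3. Knockout replicate 1 had less Myl7, Sln and Myl4 than wild-type replicate 1. It nonetheless had more Kcnj5 (82.7 against 45.2 CPM) and more Kcnk3 (7.11 against 2.64 CPM). The order of Myl2 was followed by Kcnip2, Kcnj11 and Kcnq1, 3 of the 49 genes (6.12%, beside 5.50% of all tested genes). It was reversed in Kcnj5, Kcnj14, Kcnk3 and Kcnmb1, 4 of the 49 (8.16%, beside 9.11%). Both shares were near those of all genes. The part of atrial and ventricular tissue in the genotype difference of Kcnj5 and Kcnk3 was not tested.

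In the Dzip1 comparison the potassium channel genes were close in level between the genotypes, with narrow errors. Of the 68 tested, 0 passed in edgeR, as did 0.0% of all 16160 tested genes, and 0 passed in DESeq2. The smallest adjusted p in edgeR was 0.822. At an unadjusted p under 0.05 edgeR gave 8 of the 68, beside 5.93% of all tested genes. The median log2 fold change, S14R/+ over wild type, was -0.03 with 33 of 68 positive, beside -0.00 over all tested genes. Of the 47 expressed genes, 40 had an absolute log2 fold change under 0.2 and 45 under 0.5, with a median SE of 0.13.

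The groups did not overlap in 8 of the 68 genes. The 4 higher in S14R/+ were Kcne1, Kcnj11, Kcnj14 and Kcnv2, which is 5.88% beside 4.58% of all tested genes. The 4 lower were Kcna1, Kcnb2, Kcnh3 and Kcnq3, 5.88% beside 5.86%. Both shares were near the background. With TMM-scaled CPM the groups of Kcnh2 and Kcnj2 were apart as well, 10 genes in all. The share of all tested genes under that scaling was not computed. By role, a positive fold change was found in 7 of 24 tested voltage-gated subunits, 4 of 6 silent subunits, 8 of 9 inward rectifiers, 4 of 8 K2P channels, 4 of 7 calcium-activated and related channels and 6 of 14 auxiliary subunits, beside 49.9% of all tested genes. The medians of these roles ran from -0.15 in the voltage-gated subunits to 0.12 in the silent subunits.

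Kcnq3 encodes Kv7.3, a subunit of the M current that steadies the voltage of neurons. It stood at 2.49, 2.23 and 3.03 CPM in the wild type and at 1.33, 1.59 and 1.71 CPM in S14R/+, all 3 below the wild type. At -0.73 ± 0.17 (SE) its log2 fold change missed the threshold (adjusted p = 0.822 in edgeR and 0.261 in DESeq2). It was the largest among the expressed genes of the family in that table.

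Kcnj14, the Kir2.4 rectifier, stood at 0.31, 0.44 and 0.52 CPM in the wild type and at 0.64, 0.85 and 0.88 CPM in S14R/+. It was below 1 CPM in every Dzip1 library, and its log2 fold change was 0.92 ± 0.29 (SE), which missed the threshold (adjusted p = 0.822 in edgeR). Kcne1 stood at 59.1, 57.5 and 47.0 CPM in the wild type and at 60.3, 60.4 and 61.1 CPM in S14R/+, a log2 fold change of 0.16 ± 0.08 (SE). Kcnj11 stood at 38.4, 40.0 and 36.9 CPM against 41.0, 40.5 and 41.6 CPM, a log2 fold change of 0.11 ± 0.05 (SE). In both, wild-type replicate 3 was the lowest library, and the gap between the groups was smaller than the range within the wild type. With Actc1 as a covariate the log2 fold changes of Kcne1 and Kcnj11 were 0.00051 and 0.035, and without wild-type replicate 3 they were 0.056 and 0.067.

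In unscaled CPM the most abundant genes overlapped between the genotypes. Kcnh2 stood at 171, 167 and 155 CPM in the wild type and at 179, 171 and 170 CPM in S14R/+. Kcnj5 stood at 93.1, 95.1 and 105 against 97.3, 105 and 102 CPM, and Kcnk3 at 88.3, 73.1 and 62.9 against 84.8, 86.2 and 77.3 CPM. The log2 fold changes of these 3 were 0.09 ± 0.05, 0.06 ± 0.05 and 0.16 ± 0.10 (SE). The groups of Kcnj5 and Kcnk3, which were apart in the Ift88 libraries, overlapped here. Myl7 lay between 830 and 925 CPM in all 6 Dzip1 libraries, and a link of these genes to it was not tested.

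Kcng2 stood at 73.4, 72.8 and 60.7 against 72.9, 75.8 and 67.5 CPM. Among the repolarising subunits, Kcnq1 stood at 18.1, 19.9 and 18.5 against 19.6, 20.9 and 19.8 CPM, and Kcna5 at 13.3, 15.1 and 20.8 against 15.6, 13.8 and 12.9 CPM. The inward rectifier Kcnj2 was the most even of those named, between 21.6 and 22.6 CPM in all 6 libraries. Kcnk6, a K2P subunit, lay between 19.9 and 24.2 CPM and Kcnj3 between 9.41 and 10.9 CPM. Among the transient outward subunits, Kcna4 lay between 10.3 and 12.2, Kcnd2 between 5.04 and 6.09 and Kcnd3 between 6.03 and 7.41 CPM. The median level of the expressed potassium channel genes was 5.43 CPM. Kcnab1, a Kv beta subunit, lay between 2.45 and 3.95 CPM, and Kcnj12 between 5.72 and 8.24 CPM.

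**Figure D3:**
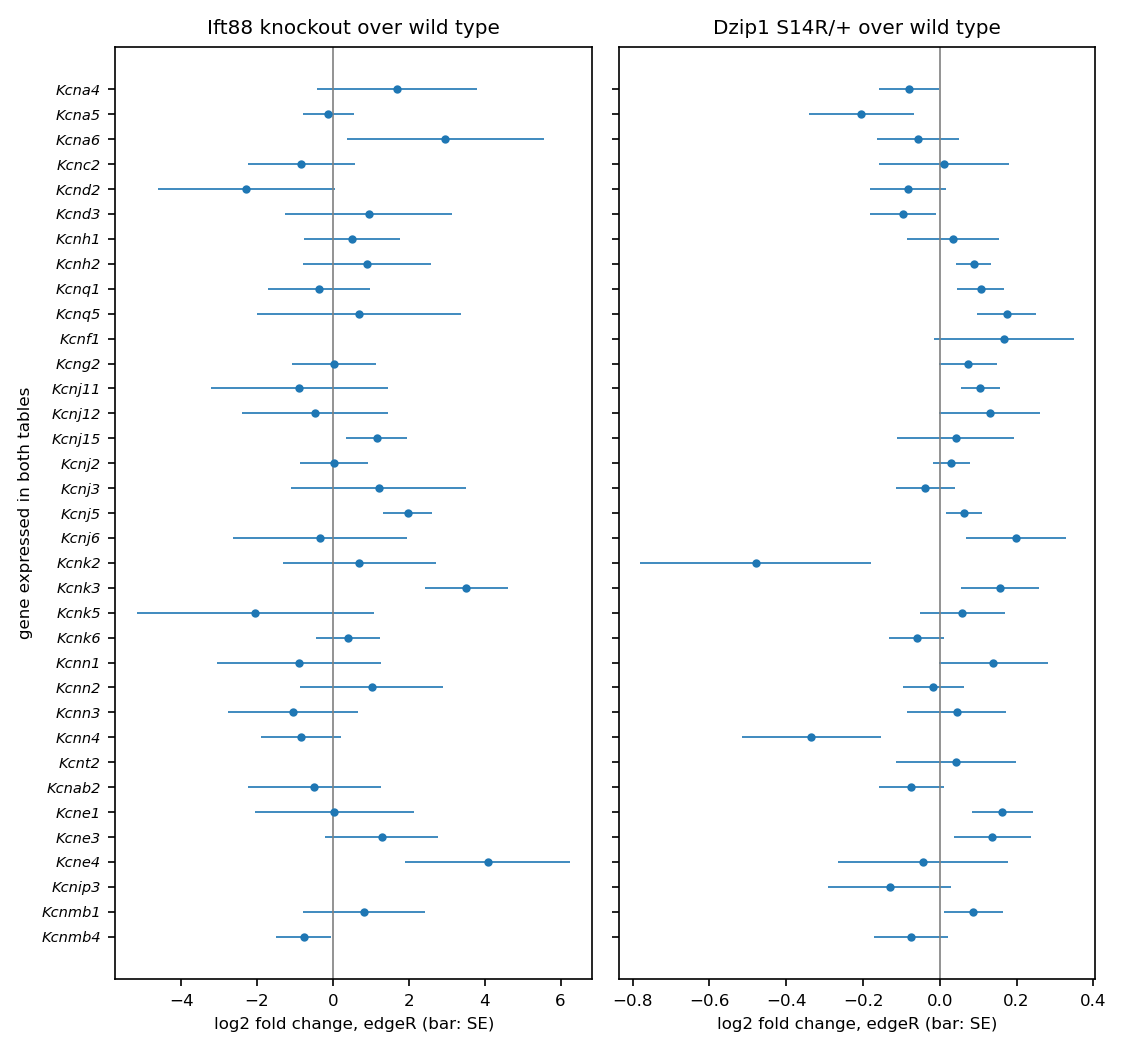
Log2 fold change of mutant over wild type with its SE (edgeR) for genes expressed in both tables, with the Ift88 knockout on the left and S14R/+ on the right, on axes of different width. Genes with 3 or fewer counts in the Ift88 wild type (Kcnf1, Kcnip3 and Kcnt2) have no point on the left, and the errors are wide there and mostly under 0.2 on the right.

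Actc1 itself varied little between the Dzip1 libraries, at 9652, 10145 and 8551 CPM in the wild type and 10343, 9995 and 10478 CPM in S14R/+, a 1.23-fold range. Over the 6 libraries the correlation of each gene with Actc1 was computed on log2(CPM + 0.1), with an exact two-sided permutation test whose smallest possible p is 0.00278. All points share the library totals and 6 libraries are few. Of the 47 expressed genes, 23 had a positive Pearson r (48.9%, beside 38.7% of all tested genes), and the median r was -0.01 (beside -0.21). An r above 0.8 was found in 4 (8.51%, beside 5.17%) and below -0.8 in 6 (12.8%, beside 8.95%). After adjustment over all tested genes 0 of the 47 passed for Pearson and 0 for Spearman, as did 0 of all genes. Before it 7 had a Pearson p under 0.05 (14.9%, beside 12.1%).

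The genes that followed Actc1 most closely were Kcnj11 (r = 0.95), Kcne1 (0.94), Kcnmb1 (0.92), Kcnh2 (0.83) and Kcnq5 (0.77). Kcnj11 had a Spearman rho of 0.94, and its adjusted permutation p-values were 0.312 for r and 0.568 for rho (exact permutation p = 0.00278 and 0.0167 before adjustment). Kcne1 had a rho of 0.71 and adjusted permutation p-values of 0.399 and 0.687 (0.0444 and 0.136 before adjustment). The libraries farthest from the median Actc1 were wild-type replicates 3 and 1. Without them r was 0.81 for Kcnj11 and 0.99 for Kcnmb1, the smooth muscle BK beta subunit. It was 0.42 for Kcne1, 0.26 for Kcnh2 and 0.02 for Kcnq5. In the 4 libraries left Actc1 spanned only 9995 to 10478 CPM, and 3 of them were S14R/+. With so few libraries and so narrow a range, these values cannot show what a relation rested on.

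Among the genes running most against Actc1 were Kcnk2 (r = -0.85), Kcnip3 (-0.82) and Kcnq3 (-0.81). Without the same 2 libraries r turned to 0.30 for Kcnk2, a stretch-sensitive K2P channel, and to 0.07 for Kcnip3, and was -0.24 for Kcnq3. Of all 47 genes, 25 kept the sign of r without those libraries, 53.2% beside 52.6% of all tested genes. Wild-type replicate 3, with the least Actc1, had the highest Col1a1 at 2119 CPM and the highest Myh11, a smooth muscle marker, at 23.9 CPM against 1.70 to 5.61 CPM in the others, and their part in these correlations was not tested. Each genotype has 3 libraries, too few for a correlation within it.

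**Figure D4:**
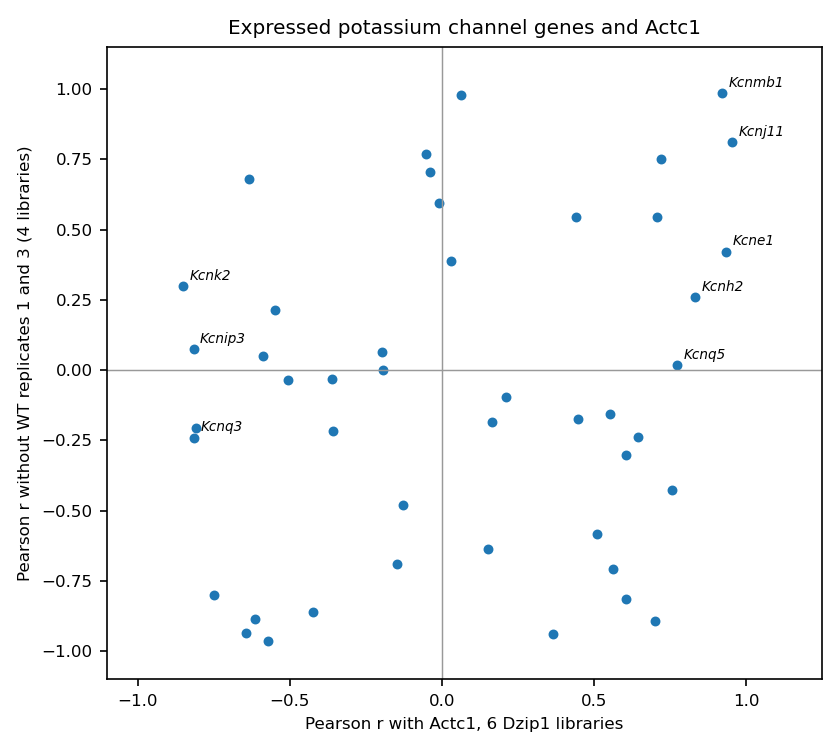
Pearson r of expressed potassium channel genes with Actc1 over the 6 Dzip1 libraries (horizontal axis) and over the 4 left without wild-type replicates 1 and 3 (vertical axis), 1 point per gene. Kcnj11 and Kcnmb1 stay above 0.8 on both axes, and Kcnk2 and Kcnip3 cross to positive values.

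Other ion transport genes, a list of 24 that holds the sodium pump, sodium and calcium channels and the sulfonylurea receptors that partner Kir6 channels, were tested in the same fits. Of its 21 tested genes in the Ift88 experiment, 0 passed in edgeR and 0 in DESeq2. Of these, 18 were positive, beside 49.4% of all tested genes, and the median log2 fold change was 0.64, beside -0.01. For Dzip1 it was 0 of 23 in both tools. There 14 were positive, beside 49.9% of all tested genes, and the median was 0.03, beside -0.0003. The 16 textbook cardiac potassium genes had medians of 0.03 and 0.05, with 0 calls in edgeR in both tables and 1 in DESeq2, Kcnk3 in the Ift88 table. Their summed level was 595, 87.8, 640, 383 and 512 CPM in the Ift88 libraries, lowest where Actc1 was lowest, and 518 to 569 CPM in the Dzip1 libraries.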

How the data were processed

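RNA of mouse mitral leaflets was measured in 11 libraries, prepared with SMART-Seq v4 per the labels' protocols. The deposited tables hold counts per gene, whole numbers summing to different totals, per the file headers. The authors used HTSeq, DESeq, DESeq2, cutadapt 1.11 and FastQC 0.11.5 with GRCm38, per the submitters' processing notes. No source used here gives the aligner, annotation or strand setting. The log2 fold changes deposited by the authors were only checked against the labels: across genes they correlated with the difference of the labelled groups at r = 0.84 for Ift88 and -0.54 for Dzip1, and at 0.63 with the last 3 minus the first 3 count columns of the Dzip1 table. Groups were taken from the genotype labels.

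CPM is the count over the column total, without scaling. Each table was fitted apart with edgeR 4.0.16 in R 4.3.3 (TMM, filterByExpr, quasi-likelihood F test, Benjamini-Hochberg threshold 0.05 over all tested genes), which was tested on simulated data. The SE is the log2 fold change over the square root of F. DESeq2 1.42.0 was the alternative test. The other alternatives were RLE scaling, other filters on low counts, an adjusted p of 0.1, Actc1 as a covariate, a transcript length correction (lowess span 0.3), libraries of 1 title prefix, each library left out, other expression limits and other forms of the correlation. Exon lengths came from GENCODE M21 (all 91 genes matched), promoters from RefSeq on GRCm38.p6. No libraries were copies: in the closest pair the chi-squared over its degrees of freedom was 11.2.

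The genes and lists were chosen with earlier results of these data known. Named are the 12 genes with the highest mean CPM per table, a textbook cardiac list, genes whose groups did not overlap with a mean count of at least 50, and the 5 highest and 5 lowest correlations with Actc1. Kcnn3, Kcnt2, Kcnf1, Kcnk1, Kcnv2 and the genes named only as members of a count were added after their values were seen. Of the genes this rule names and of those plotted, 2 are not reported here individually.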

Additional observations from a re-analysis of the deposited data

How the results depend on the processing

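No paired analysis was possible because the labels give the groups no shared replicate numbers: the titles carry codes that the labels do not explain, and the numbers used here follow accession order. The title prefix IR28N is shared by Ift88 wild-type replicate 1 and knockout replicates 1 and 2, and values within it are given. The other Ift88 prefixes hold 1 library each. In the Ift88 table the count of genes called higher moved from 0 in edgeR to 5 with DESeq2, and ran from 0 to 1 when 1 library was left out (1, Kcnh2, without wild-type replicate 1). Where 1 wild-type library was left, it was assumed to vary like the others. The median log2 fold change of the tested genes, 0.40, was 1.42 with Actc1 as a covariate, 0.65 with DESeq2, 0.73 with all genes of at least 1 count, 2.03 in the IR28N libraries, 0.14 with the length correction and 0.035 when the mean count had to reach 50. It ran from 0.056 to 3.99 with each library left out, and the cause was not tested. The genes tested were chosen anew in each fit, so those behind these medians can differ. Kcnk3 passed with DESeq2 only.

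Fold changes of 8 Ift88 genes were recomputed under every alternative, and the sign turned in 5, each with an SE above the fold change. Outside these 8, the fold change of Kcng2 turned from 0.036 in edgeR to -0.035 with DESeq2. Kcne1 (0.04) was -0.18 with the covariate, -0.032 with DESeq2 and with RLE and -0.46 in the IR28N libraries, and ran from -1.68 (without knockout replicate 1) to 9.97 (without wild-type replicate 1) with each library left out. Kcnip2 (-2.43) ran from -3.96 to 12.02, the last without wild-type replicate 1. Kcnh2 (0.90) was -0.46 in the IR28N libraries and ran from -0.098 (without wild-type replicate 2) to 8.18 (without wild-type replicate 1). Kcnj2 (0.02) was -0.045 with DESeq2, -0.046 with RLE, -0.042 in the IR28N libraries and -0.18 with the length correction, and ran from -0.51 to 0.50 with each library left out. Kcna5 (-0.12) was 0.14 with the covariate, 0.33 in the IR28N libraries, 0.013 with the length correction, and ran from -0.39 to 0.17 with each library left out.

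At 5 CPM, 23 genes were expressed in the Ift88 table and 26 in the Dzip1 table. In the Dzip1 table the counts of calls stayed at 0 under every alternative run, the median turned to 0.015 when the mean count had to reach 50, and the correlations of Kcnk2 and Kcnip3 turned to 0.30 and 0.075 without the 2 libraries farthest from the median Actc1.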

Other observations

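Levels of further marker lists, summed in CPM, give the makeup of the libraries beside the potassium channel genes, in the same order of Ift88 libraries. Smooth muscle and pericyte markers summed to 1244, 730, 1132, 829 and 1703 CPM, with 0 of 7 called in edgeR and 1 in DESeq2. Melanocyte markers summed to 75.5, 95.7, 260, 93.8 and 137 CPM and Schwann cell markers to 5.10, 17.5, 10.2, 26.4 and 8.69 CPM, with 0 calls in both tools. Macrophage and leukocyte markers summed to 118 to 230 CPM, with 0 calls in both tools. Epicardial markers summed to 4.11, 11.1, 6.63, 204 and 29.0 CPM, with 0 called in edgeR and 1 in DESeq2. Interstitial markers had 0 calls in edgeR and 3 in DESeq2, endothelial markers 0 and 1, and neuron and heart muscle markers 0 in both tools.

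In the Dzip1 libraries the sums were 39458 to 45811 CPM for heart muscle, 6063 to 8233 for interstitial cells, 1303 to 1379 for endothelium and 2121 to 2327 for smooth muscle. They were 52.9 to 61.3 for melanocytes, 18.7 to 23.0 for Schwann cells, 19.4 to 26.3 for neurons, 71.4 to 98.8 for macrophages and leukocytes and 212 to 270 CPM for epicardium. No marker of these lists was called in edgeR or DESeq2 there.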
